A study of Mus musculus with 9 samples.

Results

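The respiratory chain genes were followed in RNA-seq counts of mouse pancreatic islets: 83 of the 56748 genes in the table, taken by biotype (protein coding) and by symbol. Of these, 13 are encoded in the mitochondrial genome (symbols starting with mt-) and 70 in the nucleus: 39 named as complex I subunits (Nduf), 4 of complex II (Sdh), 8 of complex III (Uqcr) and 19 of complex IV (Cox4 to Cox8). The choice used only names and biotype, but it was made with earlier results of these data known. Primary islets of wild-type C57bl/6 mice formed 3 groups of 3 libraries. Control islets had no treatment. Inflamed islets had an inflammatory cocktail of IL-1beta, TNF-alpha and IL6, with an exposure of 48 hours. Particle islets had that cocktail plus PD-G-MSNPs, which are mesoporous silica nanoparticles coated with polydopamine, so that particles were measured under cytokines and not alone. The series asks whether the particles protect islets from the cytokines.

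The respiratory chain passes electrons from NADH and succinate to oxygen and pumps protons across the inner mitochondrial membrane, and ATP synthase (complex V) uses the proton gradient to make ATP. Complexes I, III, IV and V are built from subunits of both genomes, while complex II is wholly nuclear. The mitochondrial genome is read from its heavy and light strands as long precursor RNAs, which are cut into mRNAs, rRNAs and tRNAs, whereas each nuclear subunit has its own promoter. In beta cells, the ATP made from glucose closes potassium channels and starts insulin secretion.

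Total counts were 17832949 to 55865759 per library. Levels are in CPM, counts scaled to library totals that were adjusted by TMM factors, and a gene was called at an edgeR adjusted p under 0.05 over all 17276 genes tested. The beta cell markers, all 10 of them detected, summed to at least 341800 CPM in each control library, whereas inflamed libraries had 123600 to 229000 CPM and particle libraries 87560 to 240200. Insulin took 28.5% to 29.2% of control counts, 13.0% to 21.2% of inflamed counts and 8.55% to 21.6% of particle counts. Of the tested markers against control, inflamed islets had 9 of 10 beta, 5 of 7 alpha and 5 of 8 endothelial markers called lower. Of 10 macrophage markers, 8 were higher and 1 lower. Delta and PP cells had 2 of 4 lower, stellate cells and pericytes 2 of 8 lower, duct cells 2 of 6 higher and acinar cells 0 of 9 called. Over all genes, 20.7% were called higher and 19% lower. The T and NK cell markers Cd3e and Nkg7 were at 0 in all 9 libraries. In bulk tissue, fewer cells of a type and less RNA per cell cannot be told apart, and the part of these markers in the results below was not tested. The labels do not say whether the replicates came from separate animals, so that p-values measure the spread between these libraries, which may be technical.

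The mitochondrially encoded mRNAs were the most abundant members. Per kilobase of gene length and averaged over all libraries, mt-Co1 (the catalytic core of cytochrome c oxidase, complex IV) had 3880 CPM, mt-Cytb (cytochrome b, complex III) 1782 and mt-Nd1 (complex I) 1464. Cox8a, the most abundant nuclear member by that measure, had 391 CPM per kilobase. Yet mt-Nd3 and mt-Nd4l, both complex I subunits, stood at 2.92 and 4.51 CPM per kilobase, among the lowest of the 78 members tested. Per kilobase, mt-Co1 ranged from 2908 to 4724 CPM over the libraries and mt-Cytb from 532 to 3650, so that the order of these mRNAs differed between libraries.

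The 5 tested mitochondrially encoded mRNAs of lowest level per length were those with a near-identical nuclear copy over most of their coding part, and the part of the copies in these levels was not tested. Of the 82 members with a coding sequence that could be searched in GENCODE transcripts, 7 mitochondrially encoded ones matched an unprocessed pseudogene on chromosome 1 at 98% identity or more over at least 100 bases. The copy covered at least 90% of the coding part for 5 of them: mt-Co2 (copy Gm28661), mt-Atp6 (Gm10925), mt-Co3 (Gm28437), mt-Nd3 (Gm28438) and mt-Nd4l (Gm10222). Only part of mt-Nd4 (63.6%) and mt-Co1 (31.1%) had a copy. All 7 copies lie in 1 stretch, from Gm28439 at chr1:24650616-24651491 to Gm29216 at chr1:24654787-24655278 (GRCm39, positions of the deposited table). Control replicate 1 had 1988 counts on mt-Co2 and 2152 on its copy, against 168519 on mt-Co1 and 818 on Gm29216. Values of these 5 nearly fully copied mitochondrially encoded genes are therefore uncertain. Of the nuclear members, 15 also matched another gene at that threshold, 8 of them over at least 90% of the coding part. Among these are Cox5b and Cox5b-ps, 99.2% identical to each other and both counted here for complex IV.

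The start of mt-Nd3 shows how little can separate a member from its copy. The aligned 345 bases were 99.7% identical and differed by 1 substitution, T3C, with the base of mt-Nd3 first and positions counted from the first coding base. The sequences below are coding bases 1 to 23, and the capital marks that position.
mt-Nd3: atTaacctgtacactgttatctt
Gm28438: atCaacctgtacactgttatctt
Counts on Gm28438 were 193, 104 and 119 in controls and 13, 53 and 70 in inflamed islets, against 45, 42 and 53 and then 5, 3 and 8 on mt-Nd3.

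After cytokines, nearly all mRNAs of the mitochondrial genome and few nuclear members were lower. In inflamed islets, 11 of the 12 mitochondrially encoded members tested were lower and 0 higher than in controls, with a median log2 fold change of -2.00, against 0.047 over all genes tested. Over all genes, 19% were called lower and 20.7% higher. The exception was mt-Co1. On the TMM scale, all 12 had every inflamed library below every control, against 28.5% of all genes. Nuclear members had a median of 0.056, with 2 of 66 called higher and 4 lower, or 9.09%, against 39.6% of all genes in either direction. The difference between the genomes is described and not tested, since it is a score over members.

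mt-Nd1 encodes a membrane subunit of complex I (MT, bases 2751 to 3707). It had 2341, 2446 and 2352 CPM in control, 315, 518 and 814 in inflamed, and 1092, 2152 and 581 in particle islets. Every inflamed library was far below every control, and the particle libraries spread from inflamed levels to just under the controls. The fall in inflamed islets was 4.34-fold (log2 fold change -2.12 ± 0.467 SE, edgeR adjusted p = 0.0049).

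mt-Cytb, the only complex III subunit made in mitochondria, had 3201, 4175 and 3800 CPM in control, 609, 673 and 998 in inflamed, and 1171, 3011 and 711 in particle islets. Its 3 groups kept the same order, with control and inflamed libraries apart. It fell by 2.29 ± 0.474 (SE) on the log2 scale in inflamed islets (edgeR adjusted p = 0.0035).

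The other well-covered complex I mRNAs moved alike. The log2 fold change was -2.27 for mt-Nd2, -2.23 for mt-Nd4 and -1.598 for mt-Nd5 (edgeR adjusted p = 0.0030, 0.0036 and 0.0033). mt-Nd6, the only mRNA of the light strand, had 1182, 1031 and 1124 CPM in control and 186, 339 and 379 in inflamed islets, a fall of 1.88 (edgeR adjusted p = 0.0066). The sources used here do not say whether counting used the strand, so reads of mt-Nd6 and of heavy-strand RNA opposite it cannot be told apart. mt-Nd6 also overlaps the end of mt-Nd5, and mt-Nd4l overlaps mt-Nd4.

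The copied genes also fell. mt-Co2 and mt-Co3 of complex IV had 82.1, 93.2 and 96.6 CPM and 56.7, 60.4 and 59.95 CPM in control islets. In inflamed islets they had 29.7, 16.2 and 29.1 CPM and 23.9, 11.6 and 17.6 CPM. Both sets of libraries were apart, with falls of 1.86 and 1.74 on the log2 scale (edgeR adjusted p = 0.0074 and 0.0075). mt-Atp6, the proton channel subunit of ATP synthase, fell by 1.72 (edgeR adjusted p = 0.0031), and mt-Atp8, its overlapping partner, had 13 counts in controls, 0 in inflamed and 4 in particle islets, too few to test.

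mt-Nd3 and mt-Nd4l had the largest fitted changes on the fewest counts. mt-Nd4l had 114, 73 and 57 counts in control, 0, 1 and 4 in inflamed and 6, 35 and 3 in particle islets. The summed inflamed level was 64.2-fold lower than the control level (95% counting interval 27.2 to 199.6, counting error only; edgeR adjusted p = 0.0016). mt-Nd3 had 140 counts in controls and 16 in inflamed islets, a level 11.5-fold lower (counting interval 6.85 to 20.7, edgeR adjusted p = 0.0077). With the counts of each copy added to its member, the same number of mitochondrially encoded genes, 11, was called lower.

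mt-Co1 had 6959, 7298 and 6942 CPM in control, 4493, 6138 and 6109 in inflamed and 4825, 5192 and 5994 in particle islets. On the TMM scale the controls were apart from both treated groups, which overlap each other, and the log2 fold change in inflamed islets was -0.34 ± 0.263 (SE, edgeR adjusted p = 0.32). On plain library totals, control libraries had 6027 to 6880 CPM and inflamed libraries 4385 to 6903, which overlap. Its share of all mitochondrially encoded mRNA counts was 37.4%, 35.9% and 36.2% in controls and 69.4%, 68.4% and 62.4% in inflamed islets. In particle replicates 1 to 3 that share was 51.8%, 34.1% and 68.7%, from within 2 points of the controls to the inflamed level.

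**Figure D1:**
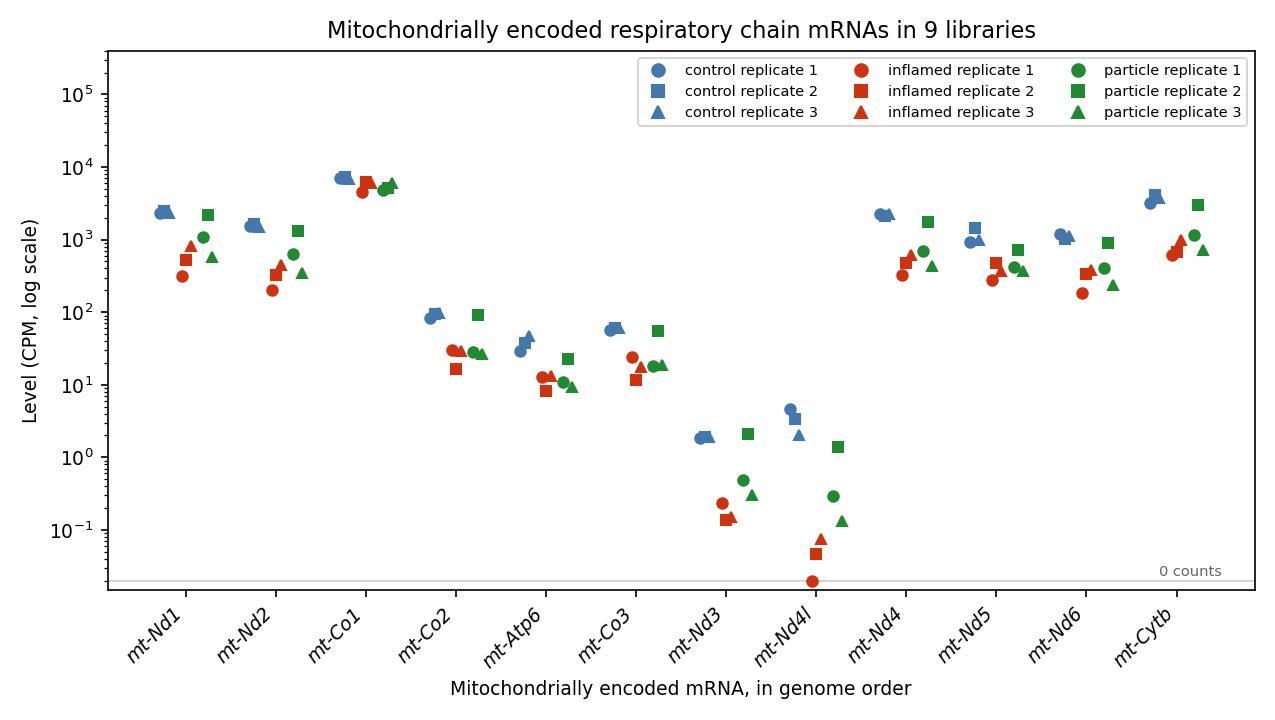
Level of each tested mitochondrially encoded mRNA (CPM, log axis) in each library, in genome order, with colours for groups and symbols for replicates. Inflamed libraries lie below all controls for each mRNA, by little for mt-Co1 (4493 to 6138 against 6942 to 7298 CPM), for which the groups overlap on plain library totals, and particle replicate 2 (green square) is the highest particle library for 11 of the 12.

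The rRNAs of the same genome moved the other way. mt-Rnr1, the small-subunit rRNA of the mitochondrial ribosome, had 220, 116 and 173 CPM in control, 689, 581 and 793 in inflamed, and 340, 224 and 868 in particle islets. It rose by 2.02 ± 0.448 (SE) on the log2 scale in inflamed islets (edgeR adjusted p = 0.0051). mt-Rnr2, the large-subunit rRNA, had 208, 143 and 169 CPM in control and 514, 561 and 624 in inflamed islets, a rise of 1.71 (edgeR adjusted p = 0.0058).

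Both rRNAs had no control library as high as an inflamed one. Together they took 0.0244% to 0.0383% of all counts in control libraries and 0.1173% to 0.1365% in inflamed ones. The part of library preparation in these small shares was not tested. For each 100 counts of mitochondrially encoded mRNA there were 1.27 to 2.30 rRNA counts in controls and 12.7 to 18.6 in inflamed islets. In particle replicates 1 to 3 there were 6.32, 2.66 and 16.8. The tRNAs mt-Tc (cysteine) and mt-Tn (asparagine) fell, with log2 fold changes of -2.30 and -2.498 (edgeR adjusted p = 0.0052 and 0.0066). Of the 9 rRNAs and tRNAs with enough counts, 2 were called higher and 3 lower. In genome order the rRNAs come first, and the 12 tested mRNAs after them all had negative fold changes, with mt-Co1 between mt-Nd2 and mt-Co2.

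**Figure D2:**
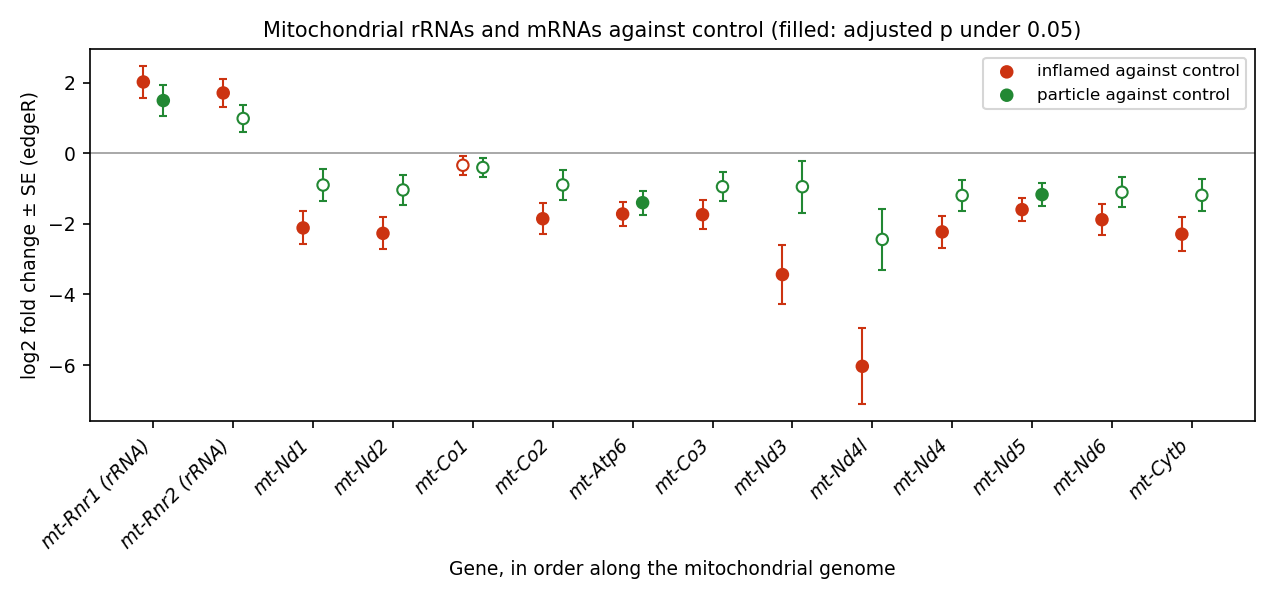
log2 fold change against control (edgeR, bars are SE) of mitochondrial rRNAs and mRNAs in genome order, for inflamed and for particle islets, which share the control libraries. Filled points have an adjusted p under 0.05: both rRNAs rose in inflamed islets (2.02 and 1.71), 11 mRNAs fell, and mt-Co1 (-0.34) did not pass. In particle islets the filled points are mt-Rnr1 (1.49), mt-Atp6 (-1.40) and mt-Nd5 (-1.17).

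Sums over members showed the same contrast. Mitochondrially encoded mRNAs took 1.66%, 1.92% and 1.66% of counts in control, 0.632%, 1.01% and 0.944% in inflamed, and 1.06%, 1.495% and 0.997% in particle islets. Nuclear members took 0.596%, 0.417% and 0.514%, then 0.654%, 0.534% and 0.688%, then 0.615%, 0.677% and 0.660%. The control and inflamed ranges were apart for the first and overlapped for the second.

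The ratio of mitochondrially encoded to nuclear counts was 3.54 ± 0.940 (SD, n = 3) in control, 1.41 ± 0.463 in inflamed and 1.82 ± 0.359 in particle islets. On the log2 scale, inflamed minus control was -1.35, particle minus control -0.95 and particle minus inflamed 0.40. Without mt-Co1, the ratio was 2.25 ± 0.622, 0.469 ± 0.156 and 0.919 ± 0.497. With the insulin genes left out of the total, the mitochondrially encoded share averaged 2.46% in control, 1.04% in inflamed and 1.42% in particle islets.

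**Figure D3:**
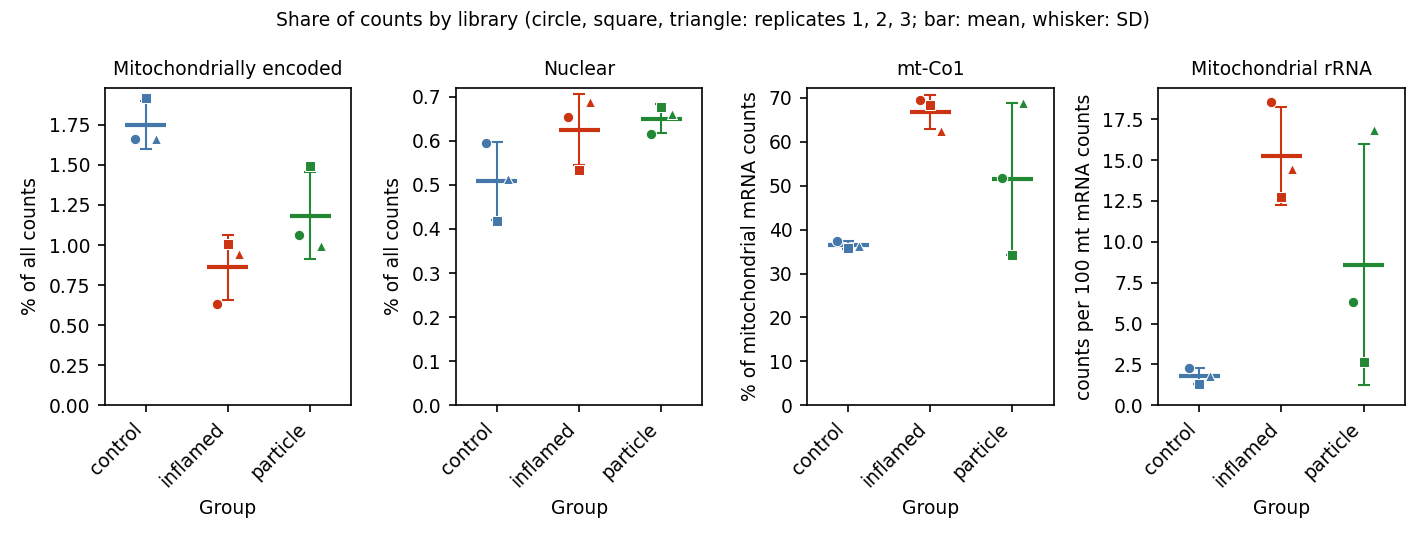
Share of all counts in mitochondrially encoded and in nuclear members, mt-Co1 as a share of mitochondrially encoded mRNA counts, and mitochondrial rRNA per 100 such counts, by library, with the mean and SD of each group. Inflamed libraries are apart from controls in all panels but that of nuclear members, and particle libraries span from 34.1% to 68.7% in the mt-Co1 panel.

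Among nuclear members, 65 of 66 changed by less than 1 on the log2 scale between inflamed and control islets and 43 by less than 0.5. By complex, 1 member of 38 was called higher and 3 lower for complex I (median log2 fold change 0.001). Complex II had 0 of 4 called (median -0.11) and complex III 0 of 8 (median 0.37). For complex IV, 1 of 16 was higher and 1 lower (median 0.39). Complex III had 2 of 8 members at an unadjusted p under 0.05 and complex II 0 of 4, against 8488 of all 17276 genes. For 5 members every inflamed library was above every control, and for 7 below, against 28.3% and 28.5% of all genes. Control replicate 2 was the lowest control for 61 of the 66 members and inflamed replicate 2 the lowest inflamed library for 56. For the 12 mitochondrially encoded members these counts were 2 and 4. The same count over all genes was not made, so the order may not be particular to nuclear members. Without inflamed replicate 2, 9 nuclear members were called higher and 2 lower, when 18.3% and 16.7% of all genes were. With plain library totals in place of TMM factors, which moved the median log2 fold change of all genes by 0.177, 16 were called higher and 1 lower. In that fit 24.5% of all genes were called higher and 15.1% lower, and the nuclear median stayed within 0.02 of that of all genes (0.241 and 0.224).

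Within complexes II and III, the nuclear members spanned a narrow range of levels. Averaged over all libraries and per kilobase, Sdhd, a membrane anchor of succinate dehydrogenase, was at 78.9 CPM and Sdhc, the other anchor, at 32.4. Uqcr10, a small subunit of complex III, was at 156 and Uqcrc2, a core protein, at 38.8. Sdhd had 113, 103 and 112 CPM in control and 99.5, 74.2 and 94.1 in inflamed islets, below every control, with a log2 fold change of -0.29 (edgeR adjusted p = 0.20). Uqcrh, the hinge protein of complex III, was at 0.56 (edgeR adjusted p = 0.075).

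Cox7a2, the widely expressed isoform of complex IV subunit 7a, had 108, 64.5 and 91.4 CPM in control, 162, 140 and 186 in inflamed, and 137, 121 and 169 in particle islets. Every inflamed and every particle library was above every control. It rose 1.85-fold in inflamed islets (log2 fold change 0.89 ± 0.231 SE, edgeR adjusted p = 0.011), and was called in all 21 other fits.

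Ndufa10, an accessory subunit of complex I, had 72.5, 50.4 and 71.9 CPM in control and 96.3, 97.9 and 123 in inflamed islets, again without overlap. It rose 1.63-fold (edgeR adjusted p = 0.016), but not past the threshold without control replicate 2 or without inflamed replicate 3 (highest adjusted p = 0.075). Ndufa9, which had the next smallest adjusted p among rises, was at log2 0.52 (edgeR adjusted p = 0.070).

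Ndufs1, the subunit of the electron-input arm of complex I that carries most of its iron-sulfur clusters, had 43.5, 48.2 and 44.3 CPM in control and 32.3, 28.8 and 19.95 in inflamed islets. Particle libraries at 32.1, 35.8 and 35.3 CPM lay below the controls and above or level with the inflamed ones. It fell by 0.75 ± 0.202 (SE) on the log2 scale (edgeR adjusted p = 0.013, and 0.070 with plain library totals). A 147-base stretch of its coding part is shared with the overlapping antisense gene Ino80dos, and strand use is not given.

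Ndufb2, an accessory subunit of complex I, had 13.7, 9.84 and 11.2 CPM in control and 7.91, 5.64 and 5.57 in inflamed islets, a fall of 0.865 (edgeR adjusted p = 0.020). It had the lowest level per length of the tested nuclear complex I members, at 1.69 CPM per kilobase, and shares 46.0% of its coding part with the overlapping gene Gm42420. Its call was lost with plain library totals, without control replicate 1 and without inflamed replicate 2 (highest adjusted p = 0.070).

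Ndufa4, first named as a complex I subunit and now assigned to complex IV, had 84.1, 67.9 and 80.9 CPM in control and 33.4, 34.1 and 64.8 in inflamed islets. Inflamed replicate 3 lay just under the lowest control. It fell by 0.81 (edgeR adjusted p = 0.044), and the call was lost in 8 of 21 other fits, among them the fits without any 1 of the controls, without inflamed replicate 1 or 2 and without particle replicate 1.

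Its paralog AA467197, whose protein can take the place of Ndufa4 in complex IV and which is outside the symbol rule, rose with cytokines. It had 0.578, 0.552 and 0.574 CPM in control, 43.2, 41.5 and 85.5 in inflamed, and 40.1, 34.4 and 65.0 in particle islets. No treated library was near a control (log2 fold change 6.63 ± 0.418 SE in inflamed islets, edgeR adjusted p = 2.4e-06). Inflamed replicate 3 had the most AA467197 and also the most Ndufa4 of its group. Ndufa4l2, another paralog that is induced by hypoxia, had 3.84, 4.09 and 3.44 CPM in control, 2.28, 1.28 and 5.07 in inflamed, and 0.689, 1.85 and 1.48 in particle islets. Only the particle libraries stood wholly below the controls, with an edgeR adjusted p of 0.085.

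**Figure D4:**
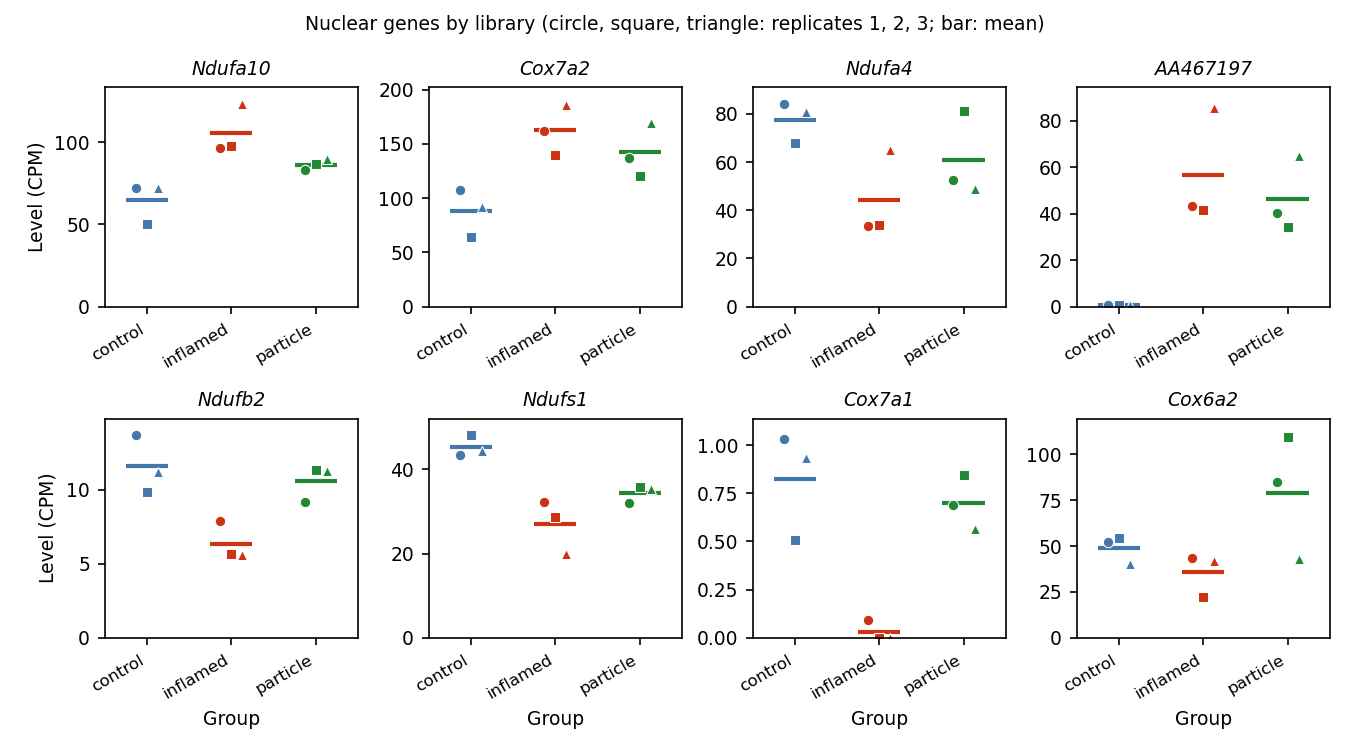
Level (CPM, axis from 0) of the 6 nuclear members called in inflamed against control islets, and of Cox6a2 and AA467197, by library, with group means as bars. Cox7a2 and Ndufa10 are higher and Ndufs1, Ndufb2, Ndufa4 and Cox7a1 lower in all inflamed libraries than in any control, and AA467197 goes from under 0.6 CPM to between 41.5 and 85.5 CPM.

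Complex IV has tissue-specific isoforms, and islets expressed mainly the widespread ones. Over all libraries and per kilobase, Cox6a1 was at 379, Cox7a2l at 226, Cox4i1 at 186 and Cox6b1 at 176 CPM. By that measure Cox6b2 was at 0.479, Cox4i2 at 0.586 and Cox7a1 at 0.969. The muscle isoform Cox6a2 lay in between at 80.4 CPM, below Cox6a1 but above Cox7b (65.3). Cox7a2l, a supercomplex assembly factor, and Cox7b, an accessory subunit, were at log2 fold changes of -0.23 and 0.36 in inflamed islets and were not called. Cox8b (3 counts in all), Cox7b2 (2 counts), Ndufb11b (1 count) and Cox8c (0 counts) were below the count filter.

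Cox7a1, the heart and muscle isoform of subunit 7a, had 25, 11 and 26 counts in control, 2, 0 and 0 in inflamed, and 14, 21 and 13 in particle islets. It was called lower in inflamed islets (edgeR adjusted p = 0.0088), with a ratio of inflamed to control level of 0.0245 (95% counting interval 0.0029 to 0.0924). Particle libraries were all above the inflamed ones, but the edgeR adjusted p was 0.15. Cox6a2, the other muscle isoform that was expressed, had 52.4, 54.6 and 40.1 CPM in control, 43.7, 22.4 and 41.7 in inflamed, and 85.0, 109 and 42.9 in particle islets. Particle replicates 1 and 2 were the highest of all 9 libraries, and replicate 3 lay among the inflamed and control values.

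With particles under cytokines, particle replicate 2 was above every inflamed library for 11 of the 12 mitochondrially encoded members, replicate 1 for 7 and replicate 3 for 2. For nuclear members these counts were 28, 6 and 5 of 66. The same count over all genes was not made, so these counts have no background. Against inflamed islets, 0 of 12 mitochondrially encoded and 0 of 66 nuclear members were called by edgeR, as were 0 of all 17276 genes (0%). At an unadjusted p under 0.05 there were 7 mitochondrially encoded members, 3 nuclear members and 2603 genes in all. Over all genes, DESeq2 called 487 higher and 296 lower, limma on log2(FPKM + 1) 1 higher and 15 lower and limma on log2(FPKM + 0.1) 5 higher and 9 lower. Fold changes were positive for 11 of the 12 mitochondrially encoded members, with a median log2 fold change of 0.99, against 0.037 over all genes and 0.012 for nuclear members.

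Among members, DESeq2 called mt-Nd4l, Cox6a2 and Cox7a1 higher, and limma on log2(FPKM + 0.1) called Cox7a1. For mt-Nd1 the log2 fold change was 1.22 ± 0.454 (SE, edgeR adjusted p = 0.24). For nuclear members the smallest adjusted p among those of at least 5 CPM were 0.18 for Cox6a2 (log2 fold change 1.14) and 0.22 for Ndufb2 (0.73) on the higher side. On the lower side it was 0.39 for Uqcrc1, a core protein of complex III (-0.42).

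The 3 particle libraries differed widely among themselves. All 3 were above every inflamed library for 2 of the mitochondrially encoded members, mt-Nd3 and mt-Nd4l, against 8.87% of all genes. Both rest on few counts: particle replicate 3 had 7 and 3, and inflamed replicate 3, a larger library, had 8 and 4. For 0 of the mitochondrially encoded members was the order reversed. Among nuclear members 2 had all particle libraries above and 2 below the inflamed ones, against 8.87% and 6.82%. On the TMM scale, replicate 2 reached the lowest control for 2 of the 12 mitochondrially encoded members, and replicates 1 and 3 for 0. On plain library totals, mt-Co1 in particle replicate 3 (6851 CPM) was above the lowest control (6027 CPM). Among particle libraries mt-Co1 was highest in replicate 3. Particle replicate 2 also held 21.6% insulin, against 8.55% and 16.1%, and had summed alpha cell markers of 7979 CPM, against 479.9 and 134, and endothelial markers of 29.5 CPM, against 6.45 and 6.67. Its summed acinar cell markers were at 3465 CPM, against 5.96 and 236 in replicates 1 and 3, and its delta and PP cell markers at 2540 CPM, against 111 and 127. The inflamed libraries also differed in acinar markers, with 2762 CPM in replicate 3 and 28.5 and 35.8 in the other two. Without particle replicate 3, edgeR called mt-Nd2, mt-Nd4l and Cox6a2 higher than in inflamed islets, along with 3.56% of all genes. The part of these cell markers in the spread was not tested.

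Against control islets, particle islets had 2 of 12 mitochondrially encoded members lower and 0 higher, against 5.92% of all genes called lower and 11.4% higher. This comparison shares the controls with the one of inflamed islets. With library totals in place of TMM factors, 84.3% of all calls were higher, against 65.7%, and with limma on log2(FPKM + 1) 42.7%. The 2 were mt-Atp6 (29.2, 37.2 and 46.4 CPM in control and 10.9, 22.4 and 9.33 in particle islets, log2 fold change -1.40, edgeR adjusted p = 0.020) and mt-Nd5 (-1.17, adjusted p = 0.031). All 12 fold changes were negative, with a median of -1.07, against 0.045 over all genes.

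This count differed with the libraries in the fit, as did the share of all genes called lower. It was 10 without particle replicate 2, when 11.8% of all genes were called lower. It was 0 without particle replicate 1, particle replicate 3, control replicate 2 or control replicate 3, when 1.24%, 1.72%, 1.82% and 1.27% of all genes were. On the TMM scale, 10 of the mitochondrially encoded members had all particle libraries below all controls, against 20.6% of all genes. On plain library totals, mt-Nd1, mt-Cytb, mt-Co1 and mt-Co3, which are among these 10, overlapped the controls. For mt-Cytb, mt-Nd4 and mt-Nd6 the edgeR adjusted p was 0.095, 0.087 and 0.098.

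No nuclear member was called by edgeR between particle and control islets, where 17.3% of all genes were. At an unadjusted p under 0.05 there were 5 of 66, against 5784 of all 17276 genes. DESeq2 called Cox7a2 higher and Ndufa4l2 lower, along with 2345 of all genes higher and 1940 lower. The median log2 fold change was 0.075. All particle libraries were above all controls for 9 nuclear members and below them for 3, against 22.9% and 20.6% of all genes. Cox7a2 was closest on the higher side (0.69, edgeR adjusted p = 0.059), followed by Ndufa12, an accessory subunit of complex I (1.01, 0.097). The pseudogene Ndufa12-ps is 99.5% identical to Ndufa12 over 89.3% of the coding part. Controls had 449, 327 and 767 counts on Ndufa12 and 467, 267 and 439 on the pseudogene. Particle islets had 531, 1312 and 1006 and then 324, 307 and 285. On the lower side Ndufs1 had the smallest adjusted p among members of at least 5 CPM (-0.40, 0.19), and Ndufb11, the most abundant nuclear complex I member per length, followed (-0.43, 0.24).

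**Figure D5:**
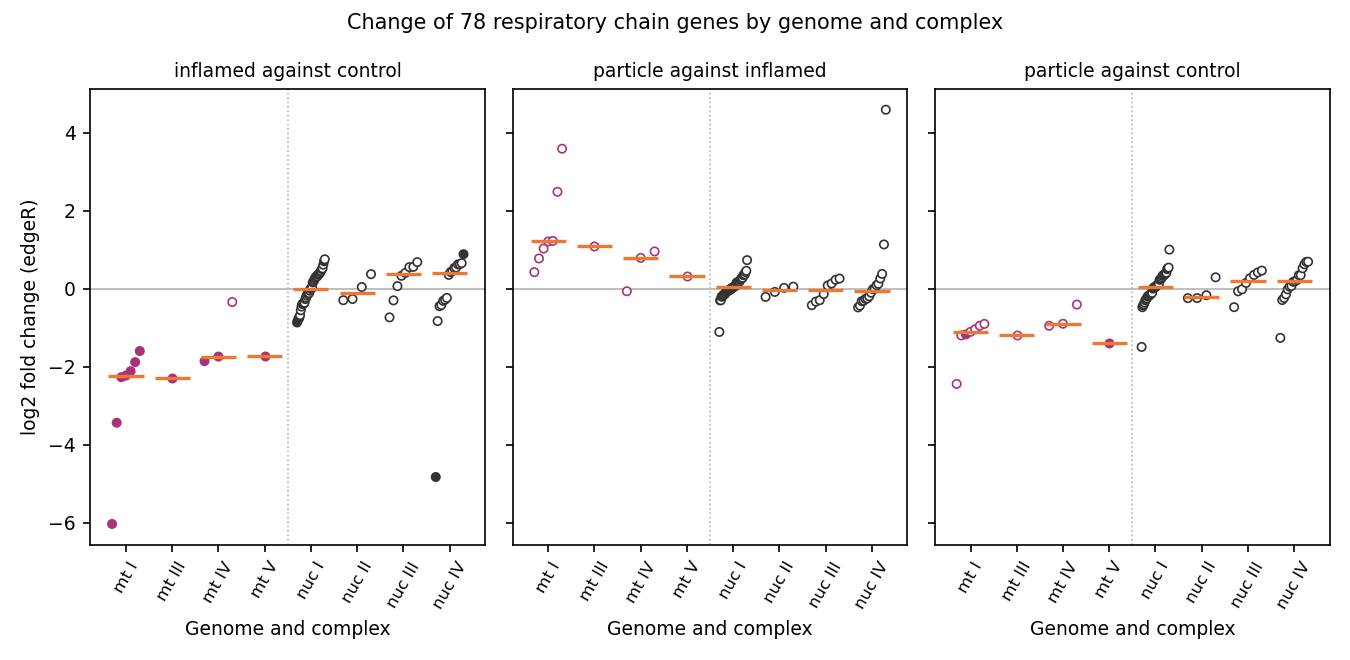
log2 fold change (edgeR) of the 78 tested members in the 3 comparisons, by genome (mt, mitochondrial; nuc, nuclear) and complex, with medians as orange bars and filled points for an adjusted p under 0.05. In inflamed islets the mitochondrially encoded members sit at a median of -2.00 and the nuclear ones at 0.056, and no point is filled for particle against inflamed.

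Genes that build and feed the chain are given for inflamed islets beside all genes, of which 20.7% were called higher, 19% lower and 39.6% in either direction. The nuclear subunits of ATP synthase had 0 of 18 called (median log2 fold change 0.16), with Dmac2l, an ATP synthase coupling factor, closest (-0.76, edgeR adjusted p = 0.057). Complex I assembly factors had 3 of 18 higher and 1 lower (22.2% called). Ndufaf4, an assembly factor, had 20.9, 13.0 and 16.6 CPM in control and 31.9, 37.9 and 39.1 in inflamed islets, while Tmem186, another, went from 26.3 to 28.2 CPM down to 14.3 to 14.6 (edgeR adjusted p = 0.0042 and 0.0018).

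Assembly factors of complexes II to IV had 7 of 33 higher and 3 lower (30.3% called, against 39.6% of all genes). Sco1, which delivers copper to the mitochondrially encoded Co2 protein, had 7.89, 4.78 and 7.36 CPM in control and 19.0, 24.6 and 24.8 in inflamed islets, a rise of 1.77 on the log2 scale (edgeR adjusted p = 0.00055). Cox18, which inserts the Co2 protein into the membrane, rose by 1.42, and Cmc1, a factor of Co1 assembly, by 1.15. Ttc19, a complex III factor, fell by 0.75. Mitochondrial ribosomal proteins had 22 of 77 higher and 1 lower (29.9% called, median 0.38), with Mrps6, Mrps18b, Mrps30 and Mrpl13 rising by 1.84, 1.65, 1.69 and 1.43.

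Of the factors that make and handle mitochondrial RNA, 7 of 27 were higher and 1 lower (29.6% called, against 39.6% of all genes). Supv3l1, the helicase of the mitochondrial RNA degradation machine, had 21.4, 17.1 and 21.9 CPM in control and 35.7, 49.4 and 44.97 in inflamed islets, apart from each other (log2 fold change 1.11, edgeR adjusted p = 0.0033). Its partner Pnpt1, a polyribonucleotide nucleotidyltransferase, was at 0.42 (adjusted p = 0.23). Trmt10c, a subunit of mitochondrial RNase P, and Tbrg4, an RNA-binding protein, rose by 1.12 and 0.81.

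Lrpprc, which binds and stabilises mitochondrial mRNAs, was the one that fell. It had 61.8, 55.0 and 62.1 CPM in control, 31.1, 39.8 and 36.4 in inflamed, and 54.8, 52.5 and 43.8 in particle islets (log2 fold change -0.74 in inflamed islets, edgeR adjusted p = 0.0075, and 0.053 with plain library totals). Polrmt, the mitochondrial RNA polymerase, and Tfam, the factor that packages mitochondrial DNA and starts its transcription, were not called (log2 fold changes 0.38 and 0.058, edgeR adjusted p = 0.10 and 0.82).

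Mitochondrial DNA maintenance had 1 of 13 higher (Mgme1, an exonuclease, 0.79) and 1 lower (Ssbp1, the single-stranded DNA binding protein, -0.75), both past the threshold in only some fits. Of 14 tested regulators of mitochondrial biogenesis, 3 were higher and 2 lower (35.7% called). Gabpb1, the partner subunit of Gabpa, and Pprc1, a coactivator related to Ppargc1a, rose by 1.61 and 1.27 (edgeR adjusted p = 0.0015 and 0.0046), and the deacetylase Sirt3 fell by 1.02. Nrf1, Gabpa and Ppargc1a were not called, at 0.46, 0.062 and 1.31 (edgeR adjusted p = 0.15, 0.835 and 0.16), the last from under 0.6 CPM in each control.

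Electron carriers and entry points had 2 of 22 higher and 7 lower (40.9% called), and pyruvate oxidation with the TCA cycle 2 of 19 higher and 4 lower (31.6%), against 39.6% of all genes. Gpd2, which hands electrons from glycerol 3-phosphate to ubiquinone, had 50.8, 69.8 and 52.3 CPM in control and 27.4, 27.5 and 24.7 in inflamed islets (edgeR adjusted p = 0.0010). Sqor, a sulfide-oxidising entry point, and Pdss2, of ubiquinone side-chain synthesis, fell by 1.16 and 1.68, while Coq3, a methyltransferase of ubiquinone synthesis, rose by 1.70. Fh1, fumarate hydratase, had 114, 208 and 182 CPM in control and 38.0, 49.98 and 47.3 in inflamed islets, a fall of 1.90 (edgeR adjusted p = 0.0017). Ogdh and Idh3g, further enzymes of the cycle, fell by 0.99 and 0.71.

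Of 9 genes known to switch the chain in inflammation or hypoxia, 4 were higher and 1 lower (55.6% called, against 39.6% of all genes). Besides AA467197 these included Acod1, which makes the succinate dehydrogenase inhibitor itaconate, at 0, 0.414 and 0 CPM in control, 126, 143 and 152 in inflamed, and 387, 64.4 and 107 in particle islets. Sod2, the mitochondrial superoxide dismutase, had 119, 92.9 and 102 CPM in control and 578, 315 and 572 in inflamed islets (log2 fold change 2.22, edgeR adjusted p = 0.00068). Pdk1, a pyruvate dehydrogenase kinase, fell by 0.98. Control libraries had 305 to 375 CPM of summed macrophage markers, inflamed libraries 965 to 1037 and particle libraries 317 to 478, and their part in these genes was not tested.

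In particle against control islets, 11.4% of all genes were called higher and 5.92% lower, or 17.3% in all, against 39.6% for inflamed islets. Ribosomal proteins of mitochondria had 15 of 77 higher, RNA factors 4 of 27, assembly factors of complexes II to IV 4 of 33 and those of complex I 1 of 18, with 0 lower in each. Electron carriers had 3 of 22 higher and 2 lower, and 1 of 19 TCA cycle genes was lower. Of the 9 mitochondrial rRNAs and tRNAs tested, 1 was higher, mt-Rnr1 (log2 fold change 1.49, edgeR adjusted p = 0.040), and 0 lower. Particle and inflamed islets were also compared directly, and edgeR called 0 members of these lists, as it called 0 of all 17276 genes. That count is therefore not particular to these lists.

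Since each nuclear subunit has its own promoter, the promoter letters that nuclear members share are given as a description. RefSeq windows (GRCm38.p6, from 250 bases before to 50 after a start) were found for 54 of the 70 nuclear members. The letters GCATGCGC, the core of sites of nuclear respiratory factor 1 (NRF1), were present on either strand for 7 of the 54 (13.0%), against 3.0% of 27025 genes with windows of the same length. A longer form with 1 free base gave 20.4% against 5.2%. The ETS letters CCGGAAGT, of the kind bound by Gabpa, were present for 7.4% against 4.3%, and the YY1 letters AAGATGGCG for 9.3% against 1.6%. None of the 3 contains another, on either strand. At least 1 of them was present for 15 of the 54 members (27.8%, against 8.5% of all genes).

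Of the 5 matched members called in inflamed islets, 0 had any of the 3, and of the other 49, 15 had. No match says only that these letters are not in the window. The next lines give the NRF1 letters in capitals with 10 bases on each side, as read on the gene's strand. They are from the 3 holders of highest level per length, chosen by the motif and not by the rule for named genes. In Cox6a1 the capitals mark GCGCATGC, which is GCATGCGC read on the opposite strand, and GCATGCGC itself overlaps that stretch.
Cox6a1: caggaacgggGCGCATGCgcgctctcgc
Uqcr11: tcgccttcacGCATGCGCtatacgtctg
Ndufa8: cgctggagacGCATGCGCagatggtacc
They lie at chr5:115349103-115349130, chr10:80406808-80406835 and chr2:36049329-36049356 (GRCm38.p6, minus strand), and their motifs begin 162, 4 and 8 bases before the start. In inflamed islets, Cox6a1 was at a log2 fold change of 0.45, Uqcr11 at -0.73 and Ndufa8 at 0.51, with edgeR adjusted p of 0.24, 0.20 and 0.15.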

How the data were processed

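The authors deposited whole-number read counts per gene and FPKM values for 9 libraries. HTSeq and DESeq2 with the GRCm39 (mm39) build are named in the submitters' processing notes; their versions were absent from those notes. Each deposited FPKM value equals the count divided by gene length and 1 constant per library. Control columns carried no group word and were matched as the remaining set of 3. Counts were tested with edgeR 4.0.16 (R 4.3.3): filterByExpr (minimum count 10), TMM factors, robust quasi-likelihood fits over all 9 libraries, and Benjamini-Hochberg adjustment over 17276 genes. Members and lists were chosen with earlier results of these data known. Genes named were all mitochondrially encoded members, all called nuclear members, per comparison the 3 nuclear members of smallest adjusted p in each direction with at least 5 CPM, per complex the highest and lowest level per length, isoform pairs, up to 4 genes per list, and 7 regulators; not every one of them is discussed. Alternatives included DESeq2 1.42.0 and limma 3.58.1. Counts were also simulated with control means in every group (15954 genes), with 100 genes planted at 4-fold and 100 at 2-fold. Of these, 82% and 17% were recovered in inflamed against control, and 5 unchanged genes were called. In the real comparison 39.6% of all genes were called, far more than were planted, so these shares are not its power. Replicates differed by far more than sampling noise (chi-square per degree of freedom 42.5 to 197), and all were kept. Copies were searched with blastn in GENCODE M21 transcripts (GRCm38).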

Additional observations from a re-analysis of the deposited data

How the results depend on the processing

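The 11 mitochondrially encoded members lower in inflamed islets were called lower in every one of 21 other fits, and no gene named as called changed direction. Median log2 fold changes of nuclear members lay near 0 and changed sign in some fits: for inflamed against control from 0.056 to -0.072 without control replicate 2, -0.027 without inflamed replicate 3 and -0.013 without a count filter; for particle against control from 0.075 to -0.121 and -0.092 without control or particle replicate 2; and for particle against inflamed from 0.012 to -0.141 and -0.13 without inflamed or particle replicate 2 and -0.005 with RLE factors and with DESeq2. Plain library totals gave 16 nuclear members higher and 1 lower in inflamed against control islets (2 and 4 with TMM), when 4240 of all 17276 genes were called higher and 2605 lower. In particle against control they gave 10 nuclear members higher and 1 mitochondrially encoded member lower (0 and 2), when 3193 of all genes were called higher and 597 lower. DESeq2 gave 2 nuclear and 1 mitochondrially encoded member higher in particle against inflamed (0 and 0), and 1 nuclear higher, 1 nuclear lower and 7 mitochondrially encoded lower in particle against control. Of all 17276 genes, DESeq2 called 487 higher and 296 lower in the first comparison and 2345 and 1940 in the second. limma gave, in particle against control, 1 nuclear member lower and 5 mitochondrially encoded members lower on both log2(FPKM + 1) and log2(FPKM + 0.1), and on the latter 1 nuclear member higher in particle against inflamed. In particle against control limma called 2017 of all 17276 genes lower on log2(FPKM + 1) and 1635 on log2(FPKM + 0.1). In particle against inflamed it called 5 of all genes higher on the latter. Fitting only the compared libraries gave 1 nuclear member lower in particle against control, when 998 of all 16237 genes were called lower. Leaving out 1 library at a time, nuclear members called in inflamed against control ranged from 1 to 9 higher and from 2 to 5 lower. Over all genes, from 2278 to 3786 were called higher and from 2401 to 3588 lower, with 17826 to 18073 tested. In particle against inflamed 0 to 1 nuclear and 0 to 2 mitochondrially encoded members were higher, as were 0 to 636 of all genes. In particle against control 0 to 1 nuclear members were higher, 0 to 1 lower, and 0 to 10 mitochondrially encoded members lower. Of all genes, 887 to 2424 were called higher and 224 to 2121 lower there. As a mean over members instead of summed counts, the log2 ratio of mitochondrially encoded to nuclear levels in inflamed minus control islets was -1.81, against -1.35. Without the insulin genes in the total, the mitochondrially encoded share in controls was 2.46%, against 1.75%. The cause of these shifts was not tested. Adding the counts of the nuclear copies of mitochondrially encoded members, chosen after seeing the data, changed none of the counts of members called.

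Deviations of same-numbered libraries had correlations of -0.184 to 0.206, and those of differently numbered ones -0.249 to 0.245. With 3 libraries a group these values cannot decide whether the numbers pair the samples, and the labels do not say. A replicate block gave 1 nuclear member higher in particle against control (0 without it), Cox7a2, and left every other count of members called within 1.5 times. In that fit 1628 of all 17276 genes were called higher in particle against control.

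With 3 libraries a group, 17% of 2-fold and 82% of 4-fold planted changes were found in simulation. It used control means in every group and planted few changes, so these shares are not the power of the real comparisons. mt-Nd3, mt-Nd4l and Cox7a1 rest on few counts, and mt-Atp8 and 4 nuclear members were too low to test.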
